A study of Vitis amurensis with 6 samples.

Results

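The CBF/DREB1 cold regulators examined here are 3 grape genes, chosen by identifier from the 31845 genes of the table. They are VIT_206s0061g01390 and VIT_206s0061g01400, neighbours of chromosome field 06 and scaffold field 0061, and VIT_216s0100g00380, called CBF4, of chromosome field 16 and scaffold field 0100. The deposited table gives identifiers without names; that these 3 are CBF/DREB1 genes is part of the rule that chose them and was not checked against an annotation. The genome build, and with it base coordinates, was not used here.

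RNA sequencing measured transcripts in leaves of month-old, wild-type Vitis amurensis plants, a wild grape noted for winter hardiness. All plants were grown in vitro on B5 medium with 0.2 mg/L of the auxin IBA, in days of 16 h light and 8 h dark. The 3 control libraries came from untreated plants at 26 °C, labelled 0 h of cold, and the 3 cold libraries from plants held for 2 h at 4 °C, both groups in light of about 100 µmol per square metre and second. The labels do not tell whether replicate libraries derive from different plants, so each p-value rests on the spread among these 6 libraries, which may be technical. The fit also draws the spread of each gene towards a trend over all tested genes. The hour of sampling is not given, so time of day and transfer of the plants cannot be told apart from temperature. The labelled tissue was not checked against leaf markers, because identifiers are not paired with names. Implied library totals ran from 16437001 to 16657708 reads in control and from 18773557 to 21217704 reads in cold.

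CBF proteins (C-repeat binding factors, also called DREB1) are transcription factors of the AP2/ERF family. They bind the C-repeat or dehydration-responsive element in the promoters of cold-regulated genes and activate them. In Arabidopsis the CBF genes are nearly silent in warm plants and are switched on early after transfer to low temperature, by factors that include ICE1 and the CAMTA proteins; their targets include dehydrins and galactinol synthase. Plants commonly carry several CBF genes, often side by side, and members of the family can differ in when and where they respond. The comparison addresses which of these regulators were read in warm leaves and which were higher after the short chill.

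The 3 members gave 2 patterns. CBF4 rose from a trace in warm leaves to a clear level after 2 h at 4 °C, from 0.679 ± 0.840 FPKM (SD, n = 3) to 18.9 ± 0.796 FPKM (SD, n = 3). Both genes of chromosome field 06 were listed at 0 in every control and every cold library. FPKM is the read count scaled to the length of the gene and to the library total. Since this is bulk leaf, fewer cells with a transcript and less transcript per cell cannot be told apart.

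CBF4 stood at 1.65, 0.167 and 0.221 FPKM in control libraries 1, 2 and 3. In cold libraries 1, 2 and 3 it stood at 19.7, 18.8 and 18.2 FPKM. The groups did not overlap, and the lowest cold library was 11.0 times the highest control library. The deposited values keep the trace of whole reads, which gave 30, 3 and 4 reads for CBF4 in the control libraries. The cold libraries held 405, 400 and 421 reads, at an implied gene length of 1093 bases.

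The rise passed the test over all genes. On the log2(FPKM + 1) scale, which understates changes of low genes, the change was 3.68 ± 0.31 (SE), with a 95% interval of 2.93 to 4.42 (limma-trend, adjusted p = 0.000592). The SD of CBF4 on this scale was 0.66 in control and 0.06 in cold (n = 3 each). The fit takes a common spread for both groups and draws it towards a trend over all tested genes. Its SE and interval are therefore not those of the CBF4 values alone. Of the 17155 genes tested, those with a mean of at least 1 FPKM, 21.0% were called higher and 13.4% lower in cold at an adjusted p under 0.05, and 6.60% were called at least 2-fold higher. The balance of these shares turned with scaling: 2807 genes were higher and 2922 lower under median-of-ratios scaling, and 2660 and 3183 under quantile normalization. Every cold library lay above every control library for 31.6% of the tested genes. CBF4 was the only member of the 3 to pass the filter, and it passed through its level in cold. By size of change on this scale it ranked 69 among the 17155 tested genes, and between 61 and 95 under the alternative settings. By the plain ratio of mean FPKM it ranked 146, with 23 genes at a control mean of 0 placed above it. At least 8-fold higher calls made up 0.810% of the tested genes.

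**Figure D1:**
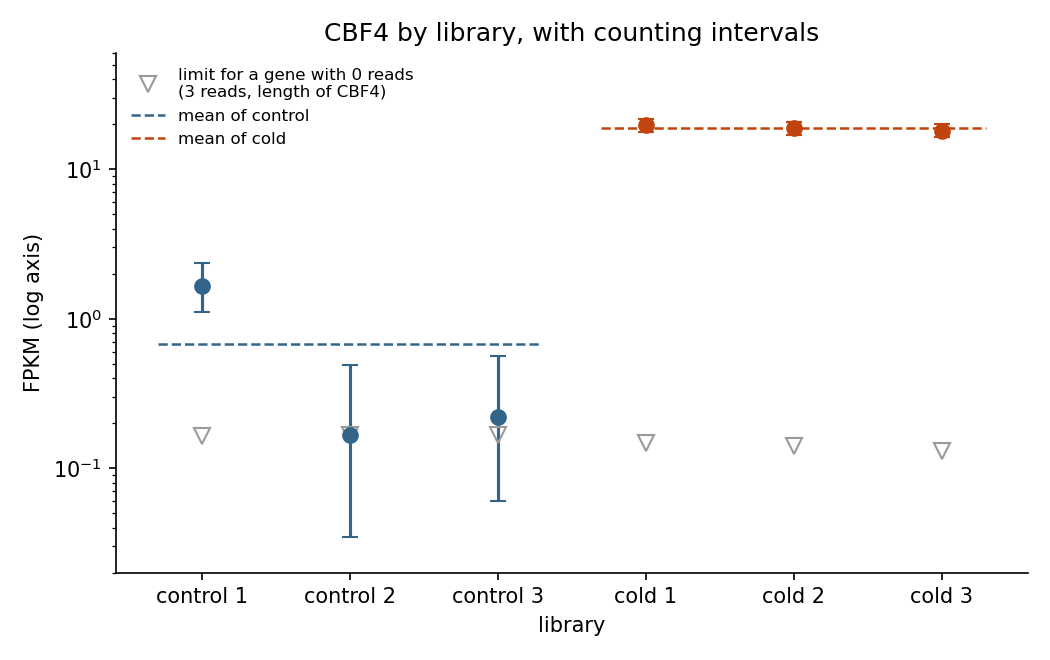
FPKM of CBF4 (log axis) in each of the 6 libraries, with 95% exact Poisson counting intervals as bars and group means as dashed lines. Grey triangles mark the level that 3 reads would give a gene as long as CBF4, about the one-sided 95% limit for a count of 0. The cold libraries lie between 18.2 and 19.7 FPKM, and control library 1 lies above control libraries 2 and 3.

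The warm level of CBF4 differed between the control libraries. Per total reads, control library 1 held 8.49 times as many CBF4 reads as control libraries 2 and 3 together, with a 95% counting interval of 3.65 to 22.9. The ratio of the group means, 27.8 as deposited, therefore turns on that library. Without control library 1 it was 97.4, against a control mean of 0.194 FPKM, and the log2 change was 4.06 (limma-trend, adjusted p = 7.08e-06). Set against control library 1 alone, the cold mean was 11.5 times as high. The same comparison of control libraries was made over other genes that rose in cold. On the log2(FPKM + 1) scale its difference from the mean of control libraries 2 and 3 was 1.15 for CBF4. The median of that difference was 0.15 (quartiles -0.11 and 0.54) over the 1133 genes called at least 2-fold higher, of which 69 had a larger one. It was -0.01 (quartiles -0.21 and 0.19) over all tested genes. Over the 139 genes called at least 8-fold higher the median was 0.28 (quartiles -0.02 and 0.94). Of these, 93 (66.9%) were higher in control library 1 than in the mean of the other two, as were 48.4% of all tested genes. These values are a description, and their part in the level of CBF4 was not tested.

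In cold leaves the level of CBF4 hardly varied between libraries. The range over the cold libraries was 0.11 on the log2(FPKM + 1) scale, and the coefficient of variation of the FPKM values was 4.21%. Among the 139 genes called at least 8-fold higher the median range was 0.76, and 4 had a smaller range than CBF4. The counting intervals of the 3 cold libraries overlapped. They were 17.9 to 21.8 FPKM in cold library 1, 17.0 to 20.7 FPKM in cold library 2 and 16.5 to 20.0 FPKM in cold library 3.

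CBF4 moved from the low end of the transcriptome to its upper part. Of the genes above 0 in the same library, 30.3%, 8.67% and 11.2% lay below CBF4 in control libraries 1, 2 and 3. In cold libraries 1, 2 and 3 the shares were 77.0%, 75.9% and 74.8%. In RPM, the read count scaled to the library total without regard to length, CBF4 went from 0.742 ± 0.918 (SD, n = 3) to 20.7 ± 0.870 (SD, n = 3). Most genes with a control mean near that of CBF4 stayed low. Of 1757 other genes with a control mean within 1.5 times that of CBF4, 1554 had a cold mean under 2 FPKM and their median in cold was 0.787 FPKM. A cold mean at or above that of CBF4 was found for 9 of them, the highest at 206 FPKM. The control mean of CBF4, 0.679 FPKM, was raised by control library 1. In control libraries 2 and 3 CBF4 stood below the range of these genes, at 0.167 and 0.221 FPKM.

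**Figure D2:**
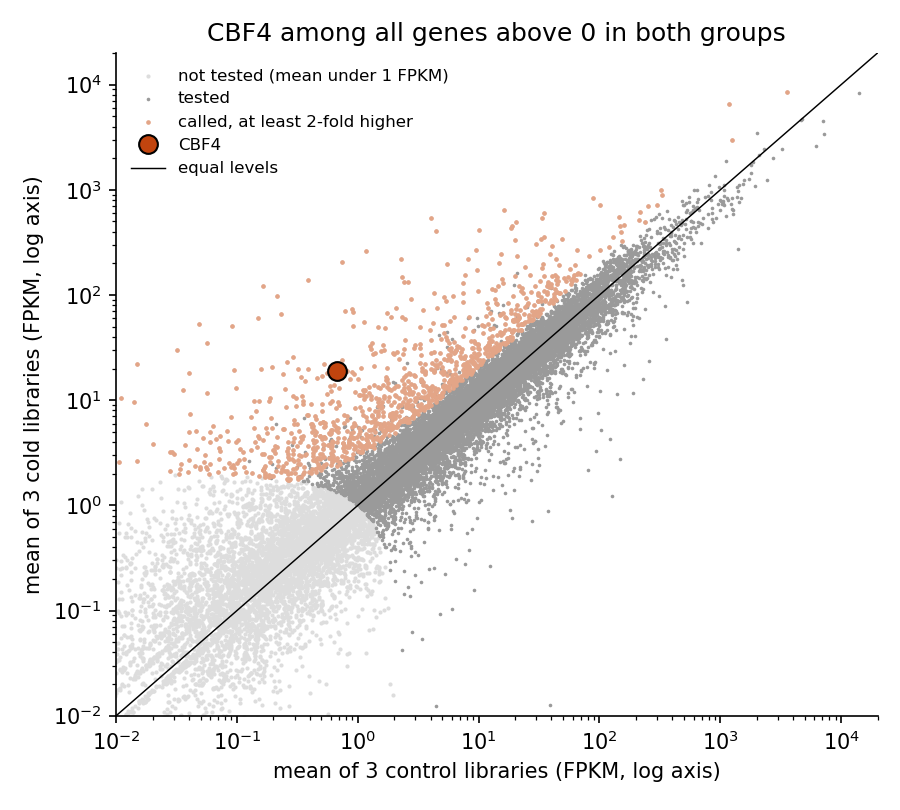
Mean FPKM in the 3 cold libraries against mean FPKM in the 3 control libraries (both log axes, points under 0.01 not shown), 1 point per gene above 0 in both groups. CBF4, at 0.679 and 18.9 FPKM, lies well above the line of equal levels. Both genes of chromosome field 06 are at 0 and have no point.

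The genes of chromosome field 06 were not detected at this depth. VIT_206s0061g01390 had 0 reads in each of the 3 control and each of the 3 cold libraries, and so had VIT_206s0061g01400. A count of 0 allows up to 3 reads, which is 0.183 RPM in the shallowest library and 0.141 RPM in the deepest. Over all 109117712 reads of the 6 libraries, the limit was 0.0275 RPM for each gene. The lengths of these genes cannot be read from values of 0. For a gene as long as CBF4 the limit would be 0.0553 FPKM over the 3 control libraries together and 0.0462 FPKM over the 3 cold libraries together. Set against 3 reads over the cold libraries, the cold mean of CBF4 was at least 409-fold higher than the level of either chromosome 06 gene, under this assumed length. These limits cover counting error only.

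A listed 0 is not by itself evidence that a gene is silent. All 6 libraries listed 0 for 6791 genes, 21.3% of the table, and identifiers without names do not show whether genes used by every cell are among them. Of the 6791, 4157 (61.2%) followed or preceded another such gene on their scaffold field. The share expected for zeros scattered at random was not computed, so this count does not tell whether a pair at 0 is unusual. Adjacent CBF genes can be similar in sequence. How the authors counted reads that fit several genes is not known from the labels or the file, and its part in the listed zeros was not tested. How well the gene models behind the identifiers match the sequences of Vitis amurensis was not checked here. Its part in the zeros was not tested either. On scaffold field 0061 of chromosome field 06, 24 of 159 genes were at 0 in all libraries, so most genes of that field had reads.

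In order of level, CBF4 stood first in each group, and the genes of chromosome field 06 could not be ordered between themselves. In cold, CBF4 lay above the limit for a gene of its length in each library. In control libraries 2 and 3 it stood at 3 and 4 reads, at or just above the limit of 3 reads in a single library. Summed, these libraries held 7 reads of CBF4, or 0.194 FPKM, above a limit of 0.0832 FPKM for 3 reads over both. On the log2(FPKM + 1) scale the response of CBF4 exceeded that of each chromosome 06 gene by 3.68, which is its own change, since the other genes add 0. That difference restates the change of CBF4, so no separate test is given. The chromosome 06 genes could not be compared with each other. Summed over the 3 members, the level is that of CBF4 alone.

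The tested genes with the profile most like that of CBF4 were named by a fixed measure. Likeness was the Euclidean distance between log2(FPKM + 1) profiles over the 6 libraries, each centred on its control mean, so the control libraries entered the choice. Of the other 17154 tested genes, 25 lay within a distance of 1. The nearest, at 0.41, was VIT_208s0032g01150 of chromosome field 08. It stood at 32.9, 15.7 and 14.3 FPKM in control libraries 1, 2 and 3 and at 217, 229 and 263 FPKM in cold libraries 1, 2 and 3. The next, at 0.57, was VIT_216s0013g01080 of chromosome field 16, on another scaffold field than CBF4. It stood at 55.6, 14.5 and 19.4 FPKM in the control libraries and at 349, 272 and 300.3 FPKM in the cold libraries. Both were read at clear levels in warm leaves, unlike CBF4. Their levels in cold were 236 ± 24.2 and 307 ± 39.1 FPKM (SD, n = 3 each). The log2(FPKM + 1) scale understates changes of low genes such as CBF4, so likeness on it does not mean equal ratios. The ratio of mean FPKM, cold over control, was larger for CBF4, at 27.8, than for either gene. As a ratio, the excess of control library 1 over the other control libraries was also larger for CBF4.

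**Figure D3:**
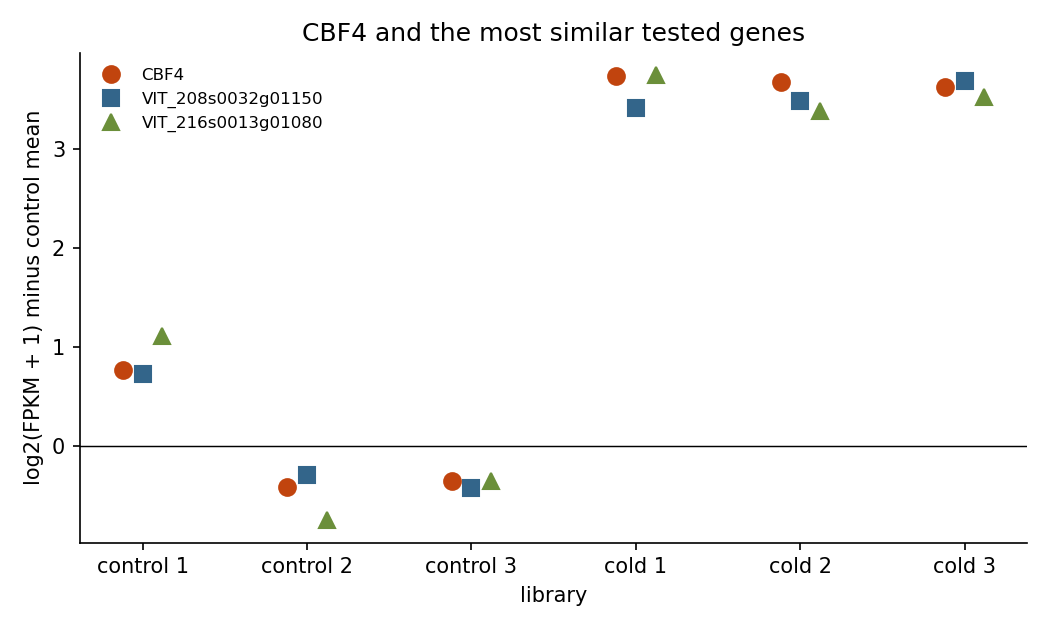
Level of CBF4 and of the nearest tested genes by profile in each library, as log2(FPKM + 1) minus the gene's own control mean. All 3 genes lie above their control mean in control library 1 and below it in control libraries 2 and 3, and all lie more than 3 above it in the cold libraries. The genes were picked for this likeness, control library 1 included. The scale understates differences of CBF4, which had the lowest level of the 3 genes, so equal heights do not mean equal ratios in FPKM.

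None of the tested genes next to CBF4 was called at least 2-fold higher, beside 6.60% of all tested genes. At that share, a count of 0 among 20 does not set these neighbours apart. Among the 10 tested genes on each side of it in identifier order, log2 changes ran from -0.94 to 0.85. Of these 20 genes, 3 were called higher and 3 lower (limma-trend), beside 21.0% and 13.4% of all tested genes. None was called at least 2-fold lower either, beside 523 of all 17155 tested genes. Median-of-ratios scaling called 1 of the 20 higher and 3 lower, of which 1 was at least 2-fold lower, and quantile normalization called 1 higher and 4 lower, of which 2 were at least 2-fold lower. Neither scaling called any of the 20 at least 2-fold higher. Of all 17155 tested genes, median-of-ratios scaling called 2807 higher and 2922 lower, of which 656 were at least 2-fold lower. Quantile normalization called 2660 higher and 3183 lower, of which 727 were at least 2-fold lower. Over all of scaffold field 0100, 16 of 53 tested genes (30.2%), CBF4 among them, were called higher, beside 21.0% of all tested genes. Called lower were 4 of the 53 (7.55%), beside 13.4% of all tested genes. The shares over the field are for the deposited scaling only. The tested gene just before CBF4 stood at 20.2 ± 1.36 FPKM in warm leaves and at 25.7 ± 1.79 FPKM after cold (SD, n = 3 each), and the log2 change was 0.33 ± 0.09 (SE; limma-trend, adjusted p = 0.0285). Its adjusted p was 0.0606 under median-of-ratios scaling and 0.0667 under quantile normalization. The tested gene just after CBF4 stood at 4.23, 0.746 and 0.432 FPKM in control libraries 1, 2 and 3 and at 3.48, 4.04 and 2.36 FPKM in the cold libraries. Its groups overlapped through control library 1, and its log2 change of 0.85 ± 0.48 (SE) did not pass (limma-trend, adjusted p = 0.218).

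The tested genes nearest to the chromosome field 06 genes varied in direction. That these neighbours had reads was set by the filter at a mean of 1 FPKM. The tested gene just before the pair stood at 3.57, 31.2 and 21.3 FPKM in control libraries 1, 2 and 3 and at 5.26, 3.21 and 23.5 FPKM in the cold libraries, so its groups overlapped. The tested gene just after the pair went from 8.02 ± 0.752 to 9.52 ± 0.552 FPKM (SD, n = 3 each), with a log2 change of 0.22 that did not pass (limma-trend, adjusted p = 0.122). Of the 20 nearest tested genes, 4 were called higher and 3 lower, 2 in each direction by at least 2-fold (limma-trend). Over all tested genes the shares were 21.0% higher and 13.4% lower. Over all 17155 tested genes, 1133 were called at least 2-fold higher and 523 at least 2-fold lower. Under median-of-ratios scaling and under quantile normalization 4 of the 20 were called higher and 6 lower, again with 2 in each direction by at least 2-fold. Of all 17155 tested genes, median-of-ratios scaling called 2807 higher and 2922 lower, and quantile normalization called 2660 higher and 3183 lower. The share of tested genes called higher over the whole scaffold field, 20 of 108 or 18.5%, was near the 21.0% of all tested genes. Called lower over that field were 12 of 108 (11.1%), beside 13.4% of all tested genes.

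**Figure D4:**
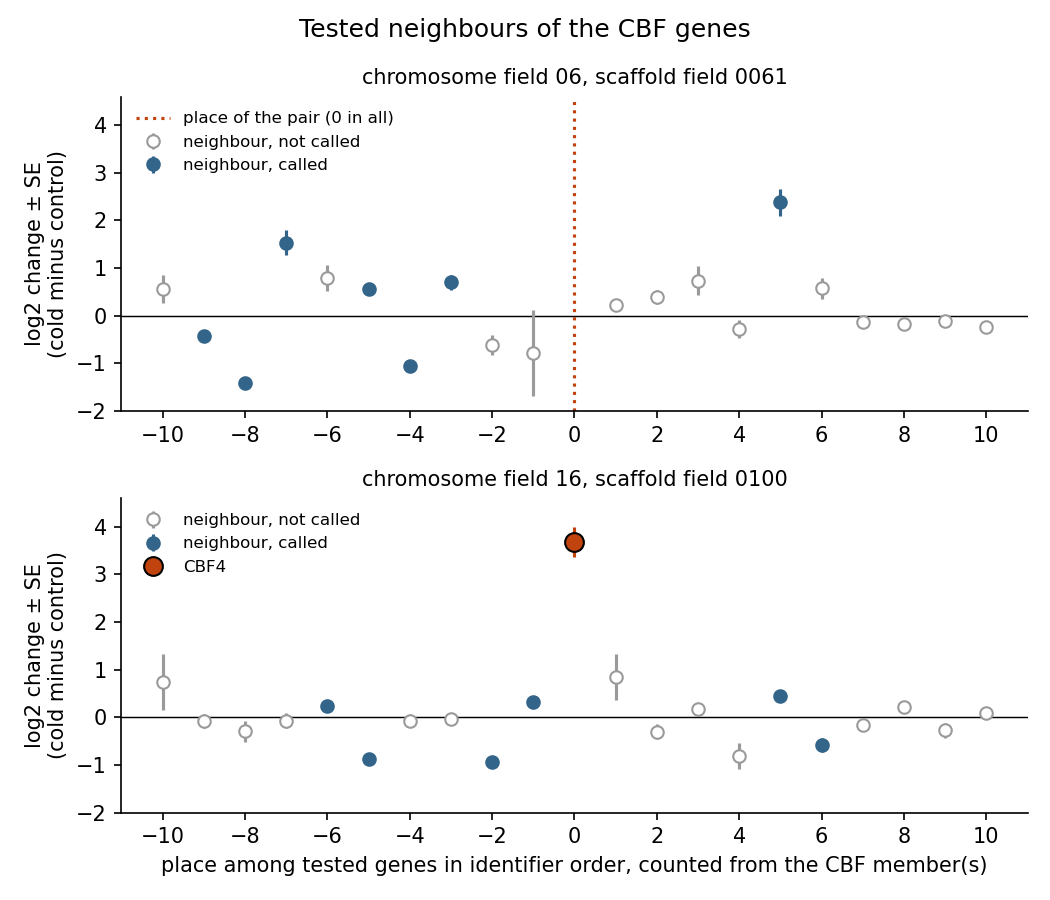
Log2 change (cold minus control, bars give the standard error) of the 10 nearest tested genes on each side of the chromosome 06 pair (top) and of CBF4 (bottom), in identifier order. CBF4, at 3.68, stands above neighbours that run from -0.94 to 0.85; a dotted line marks the place of the pair, which has no change value.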

How the data were processed

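FPKM values for 31845 genes in 6 libraries were deposited by the authors as one table; no column was left unused. The tools named, without versions or roles, per the submitters' processing notes, are STAR, HTSeq, DESeq2, cutadapt and FastQC. The sources used here give neither annotation nor strand setting, nor how reads shared between genes were handled. Columns were matched to samples by title.

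Groups were compared by limma-trend (limma 3.58.1, R 4.3.3) on log2(FPKM + 1) over the 17155 genes that averaged at least 1 FPKM, two-sided, with Benjamini-Hochberg adjustment and a threshold of 0.05. Library totals were recovered from the steps between values. Each gene was given the smallest whole length that made all its values whole reads within 0.001 reads. Such a length was found for 25054 of the 25054 genes above 0. Where the counts of a gene share a divisor, its reads and length come out too small. Recovered reads made up 99.4% (cold library 1) to 99.6% (control library 1) of the implied totals. The reads, totals and lengths served for depth, limits, counting intervals and limma-voom. The recovery and the fit were tried on simulated data, with outcomes not given here. The simulated reads were drawn from the recovered reads and lengths, so they cannot show that the recovered lengths are right. Python 3.11.15, numpy 2.4.6, pandas 2.3.3, SciPy 1.17.1 and matplotlib 3.10.9 were used.

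The members, lists and tests were chosen with earlier results of these data known. The genes to be named were the members, their nearest tested neighbours and those most like them in profile; neighbours are given by place. Lists of upstream regulators, targets, other DREB genes, early cold factors and tissue markers, defined by product name, had no members without an annotation and were not analysed here. Promoter and protein sequences were not used here.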

Additional observations from a re-analysis of the deposited data

How the results depend on the processing

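CBF4 rose and passed the test in each of 14 alternatives, with log2 changes from 3.43 (quantile normalization) to 5.44 (limma-voom on recovered reads) and an adjusted p of at most 0.00529; with a library left out the changes ran from 3.47 to 4.06. A pseudocount of 0.1 gave 5.16, also as the response of CBF4 beyond that of each chromosome 06 gene. With the pseudocount of 1, leaving out a library moved that response between 3.47 and 4.06. The ratio of means of CBF4 was 20.2 to 97.4 with a library left out, an alternative chosen after seeing the data. The summed difference was 17.8 to 18.7 FPKM with a library left out, and 17.5 FPKM under median-of-ratios scaling. With a replicate block the log2 change was 3.68, adjusted p = 0.00431, and 2480 genes were higher and 1627 lower; libraries of the same number did not move together (deviations from group means correlated at -0.26, -0.13 and -0.28). Over all genes, 52 of 56 counts of calls stayed within 1.5 times the reported count. The exceptions were 3549 genes lower with library weights, 684 at least 2-fold higher with only genes averaging 5 FPKM or more (fewer genes tested), and 2253 higher and 1425 lower without cold library 2; the cause of the others was not tested. Rises made up 61.1% of calls as deposited, 49.0% under median-of-ratios scaling and 45.5% under quantile normalization. Leaving out each library gave 2253 to 4180 genes higher and 1425 to 2746 lower, and 1011 to 1251 and 450 to 588 at 2-fold or more. The list alternatives were not run, since the lists had no members. At 3 to 4 reads in control libraries 2 and 3, depth limits the warm level of CBF4 and any fold from it.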
